A study of Caenorhabditis elegans with 3 samples.

Results

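Isolated LET-418 binding sites were examined in L3 larvae of Caenorhabditis elegans. A site was isolated when the authors' combined peak list held no other peak with an edge within 5000 bp on either side of it. Chromosome I was left out. By this rule 1155 of the 7641 combined peaks on chromosomes II to V and X were isolated, which is 15.1% (95% Wilson interval 14.3 to 15.9%), and 6486 were not. The whole combined list, chromosome I included, held 9187 peaks. The positions in the combined list chose the members, so the spacing of these peaks is given as a description and nothing was tested on it.

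LET-418 is a worm homologue of Mi-2, an ATPase that moves nucleosomes. It works in the NuRD complex, which joins nucleosome remodelling to the removal of acetyl groups from histones, and in the MEC complex, which it forms with MEP-1. In worms it is known for keeping germline genes silent in somatic cells, for its part in vulval development and for its need in larval growth.

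The data are chromatin immunoprecipitation followed by sequencing (ChIP-seq) from wild-type animals of strain N2, grown at 20 °C as a mixed population of males and hermaphrodites. The 2 ChIP replicates, called replicate 1 and replicate 2 here, were made with a polyclonal rabbit antibody raised against a stretch of LET-418 and affinity-purified. The labels also describe 1 input DNA library, which was not analysed here. Whole larvae were used, so a peak reports binding somewhere in the animal and not in a named tissue. The labels do not say whether the replicates came from separate cultures.

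The authors deposited a peak list for each replicate and the combined list, each giving a position on the WormBase WS220 genome and a peak score on a scale that is not stated. The replicate 1 list held 13326 peaks on chromosomes II to V and X, and the replicate 2 list held 8145. No read counts come with the lists, so the depth is unknown. Intervals below cover counting error only. There is 1 group with 2 replicates, so no test over samples could be made, and comparisons of isolated with non-isolated peaks are descriptions. Scores order peaks within a list and are not compared between lists.

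Isolated peaks lay in open stretches. The median distance to the nearest combined peak was 12.1 kb (quartiles 7.31 and 21.1 kb, range 5.02 to 243 kb). On the farther side the median was 35.9 kb (quartiles 20.6 and 59.04 kb) over the 1152 peaks with a neighbour on both sides. The other 3 were the first or last peak of their chromosome. Of the 1155, 679 (58.8%) had their nearest neighbour more than 10 kb away, 315 (27.3%) more than 20 kb, 45 (3.90%) more than 50 kb and 5 more than 100 kb. The remaining 476 (41.2%) had it at 5 to 10 kb, nearer to the limit. Non-isolated peaks had a median distance of 278 bp to the nearest peak, with quartiles of 127 and 856.5 bp.

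**Figure D1:**
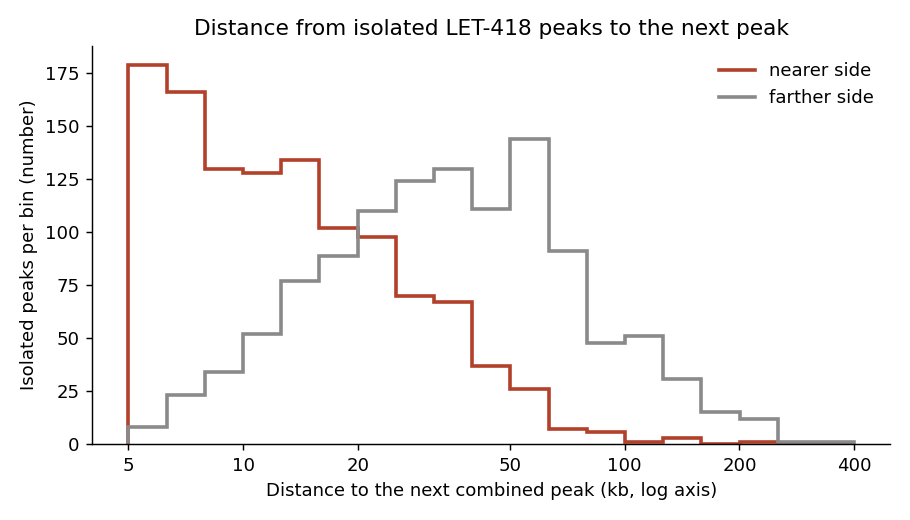
Distance from each isolated combined peak to the next combined peak in kb (log axis), with the number of isolated peaks per bin; red, the nearer side (n = 1155), grey, the farther side (n = 1152). The nearer side has a median of 12.1 kb and its tallest bin next to the limit of 5 kb, and the farther side has a median of 35.9 kb.

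The 3 isolated peaks nearest to the limit had gaps of 5020 bp (II, 11967511 to 11967734), 5033 bp (IV, 6330872 to 6331033) and 5036 bp (IV, 1477443 to 1477626). Their combined scores were 6.40, 2.10 and 6.03. The 3 non-isolated peaks just under it had gaps of 4990 bp (a pair of neighbours on II, 6355718 to 6355866 and 6360857 to 6361016) and 4970 bp (III, 6452770 to 6452947), with scores of 3.44, 3.31 and 4.39. All 6 had a partner in both replicates.

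Sites were also viewed as stretches, joining peaks no more than 5000 bp apart. The 7641 peaks formed 2518 stretches, of which the isolated peaks were 1155 (45.9%). A further 485 stretches held 2 peaks, 426 held 3 to 4, 308 held 5 to 9, and 144 held 10 or more, up to 46. Counted as places on the chromosome, single peaks were therefore the most frequent form, although they held 15.1% of the peaks and 298 kb (12.7%) of the bases covered.

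The nearest neighbour of an isolated peak was another isolated peak in 542 of 1155 cases (46.9%). It belonged to a stretch of 2 to 4 peaks in 400 cases (34.6%) and to a stretch of 5 or more in 213 (18.4%). Among all 2518 stretches these kinds made up 45.9%, 36.2% and 18.0%, given here for orientation, since both sets of shares come from the positions that the rule used. Of the 1155, 849 (73.5%) stood in a run of at least 2 isolated peaks with no other peak between them, and 65 runs had 4 or more. Since singles were 45.9% of all stretches, many such runs arise in any order, and nothing is read from this share. The longest runs held 8 isolated peaks each. All 3 of these lay on IV, from 300252 to 620621 (320 kb), from 15060087 to 15320067 (260 kb) and from 16845423 to 17249981 (405 kb).

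The density of isolated peaks varied less along the chromosomes than that of the other peaks. The rule itself limits this density, since crowded regions leave little room for peaks over 5000 bp from any other. The contrast is therefore a description, and nothing is read from it. Per Mb there were 13.5 isolated peaks on II (exact Poisson interval 11.7 to 15.5), 14.3 on III (12.4 to 16.4), 14.9 on IV (13.1 to 16.8), 10.9 on V (9.50 to 12.4) and 15.0 on X (13.2 to 16.9). Chromosome V was the lowest, and its interval overlapped that of II and, barely, that of III, but not those of IV and X. Non-isolated peaks ran from 55.2 per Mb on V to 108 on III, a ratio of 1.96, against a ratio of 1.38 for the isolated peaks.

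The share of peaks that were isolated differed between chromosomes. It was 14.1% on II (12.5 to 16.03%), 11.7% on III (10.2 to 13.3%), 19.4% on IV (17.4 to 21.6%), 16.4% on V (14.6 to 18.5%) and 14.9% on X (13.3 to 16.6%). Chromosome III, the most densely bound, had the lowest share. Chromosome IV had the highest, although V was bound more sparsely. X held 22.9% of the isolated peaks and 23.4% of the non-isolated peaks, a difference of −0.41 percentage points (Newcombe interval −2.97 to 2.29). It became 4.17 points (1.29 to 7.16) when the combined list was first reduced to the upper part of its scores, from the median upward, and −3.69 points (−7.31 to 0.43) when no peak of any of the 3 lists was allowed within 5000 bp. With the rule applied to the replicate 1 list it was −2.73 points (−5.01 to −0.30).

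Each chromosome was cut into 3 equal parts, the outer 2 standing for its arms and the middle for its centre. Over the 15 parts the density of isolated peaks ranged from 10.5 per Mb in the left part of V to 16.4 in the right part of X, a ratio of 1.57. That of non-isolated peaks ranged from 39.8 per Mb in the right part of IV to 154 in the left part of III, a ratio of 3.86. The parts at both extremes for non-isolated peaks lay inside the range for isolated peaks. The limit that the rule sets on the density of isolated peaks applies here too. The right part of IV had 86 isolated peaks (14.8 per Mb, 11.8 to 18.2), 27.0% of its peaks, and the left part of III had 64 (13.9 per Mb, 10.7 to 17.8), 8.31% of its peaks.

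**Figure D2:**
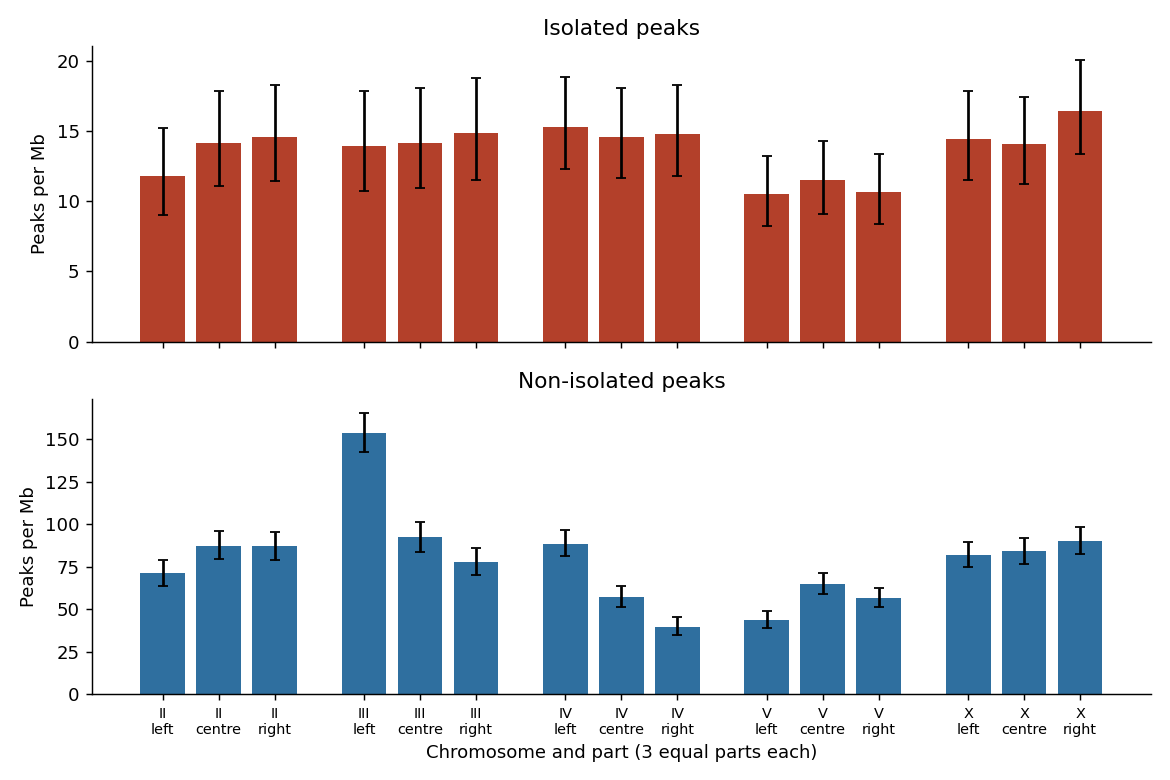
Combined peaks per Mb in 3 equal parts of chromosomes II to V and X; upper panel, isolated peaks, lower panel, non-isolated peaks, each on its own axis from 0, with exact 95% Poisson intervals as bars. Isolated peaks stay between 10.5 and 16.4 per Mb, and non-isolated peaks between 39.8 and 154 per Mb.

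Arms and centres held isolated and other peaks in like shares. On II to V, 588 of 890 isolated peaks (66.1%, 62.9 to 69.1%) lay in the outer parts, against 3317 of 4971 non-isolated peaks (66.7%, 65.4 to 68.02%), a difference of −0.66 percentage points (−4.09 to 2.65). On X the shares were 68.7% of isolated (62.9 to 74.0%) and 67.2% of non-isolated peaks (64.8 to 69.5%). This differed with the setting. When combined peaks below the median score were dropped and the rule was applied again, the difference was −12.4 points (−16.2 to −8.73). Dropping them also removed neighbours, so score and spacing changed together and cannot be told apart. The difference was −4.61 points (−7.75 to −1.59) when the rule was applied to the replicate 1 list. For peaks with no neighbour in any of the 3 lists it was −6.37 points (−11.7 to −1.23).

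The number of isolated peaks was also counted on a finer scale. The 5 chromosomes were cut into 848 windows of 100 kb. In the 232 windows with 1 to 4 combined peaks there were 1.29 isolated peaks per window, in the 257 with 5 to 9 there were 1.64, in the 229 with 10 to 19 there were 1.42, and in the 82 with 20 or more there were 1.28. The isolated share of the peaks ran from 52.5% in the sparsest of these classes through 23.7% and 10.7% to 4.77% in the densest, a fall that the rule itself brings, since windows with many peaks leave little room for peaks over 5000 bp from any other. At least 1 isolated peak was present in 626 windows (73.8%), and at least 1 non-isolated peak in 682 (80.4%). No window held more than 6 isolated peaks.

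Isolated peaks were narrow. Their median width was 207 bp (order-statistic interval 201 to 213 bp; quartiles 168 and 283 bp), against 233 bp for non-isolated peaks (229 to 237 bp; quartiles 180 and 353 bp), a difference of −26 bp (−33.2 to −18.8 bp). Wide peaks were scarcer among them. Of the isolated peaks 62 (5.37%, 4.21 to 6.82%) were wider than 500 bp, against 877 non-isolated peaks (13.5%, 12.7 to 14.4%). Widths above 1000 bp were found at 8 isolated (0.693%) and 153 non-isolated peaks (2.36%). Peaks narrower than 200 bp made up 46.1% of the isolated and 36.4% of the non-isolated peaks.

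**Figure D3:**
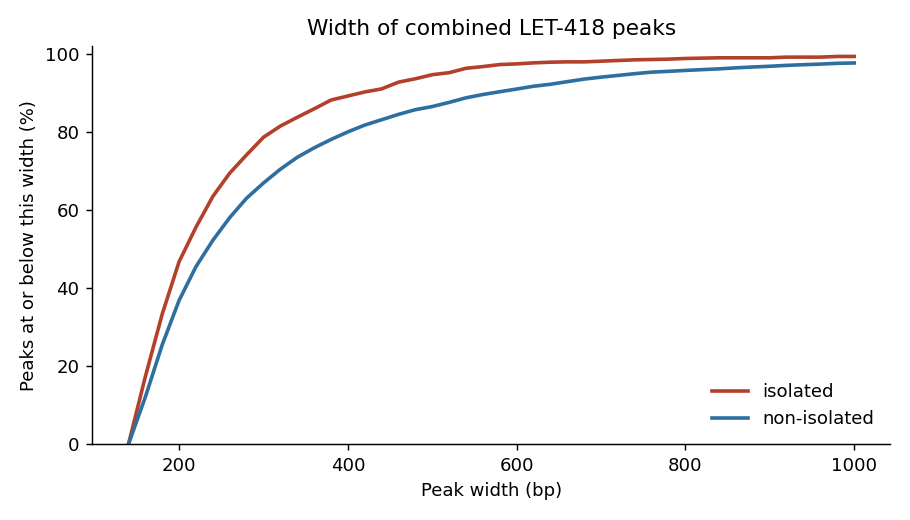
Cumulative share of combined peaks (%) at or below each width in bp up to 1000 bp; red, isolated peaks (n = 1155), blue, non-isolated peaks (n = 6486). The isolated curve lies to the left, with medians of 207 and 233 bp.

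Isolated peaks had the lower median width on each of the 5 chromosomes. The medians of isolated and non-isolated peaks were 206.5 and 232 bp on II, 210 and 222 bp on III, 207 and 239 bp on IV, 212 and 238 bp on V, and 199 and 237 bp on X. On III the interval of the isolated peaks (199 to 230 bp) included the non-isolated median. The partners in the replicates showed the same order. The best-scoring overlapping peak of replicate 1 had a median width of 271.5 bp at isolated peaks (265 to 280 bp) and 340 bp at non-isolated peaks (332 to 349 bp). In replicate 2 the medians were 256 bp at isolated (243 to 264 bp) and 318 bp at non-isolated peaks (312 to 327 bp). Some replicate peaks spanned several combined peaks, which the spacing rule all but precludes at isolated ones. Such a partner was found at 0 of 1150 isolated and 1203 of 6429 non-isolated peaks (18.7%) in replicate 1, and at 0 of 1003 isolated and 1139 of 5976 non-isolated peaks (19.1%) in replicate 2. Its part in the width difference of the partners was not tested.

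In the combined list isolated peaks had a slightly lower median score than the others. The median combined score was 3.82 (3.62 to 3.93) for isolated and 3.93 (3.93 to 4.02) for non-isolated peaks. As a percentile of the whole combined list the medians were 46.8 for isolated and 49.7 for non-isolated peaks, a difference of −2.91 points (−6.42 to 0.00). With the limit at 2500 bp it was −4.65 points (−7.50 to −1.26), and with the rule applied to the replicate 1 list and its own scores −7.70 points (−11.1 to −5.05). With the limit at 10000 bp it was 0.00 points (−5.88 to 3.86). It was also 0.00 points (−6.41 to 0.00) when combined peaks below the median score were dropped first. For peaks with no neighbour in any of the 3 lists it was 1.93 points (−1.81 to 6.82). At or above the median score of the list stood 562 isolated peaks (48.7%, 45.8 to 51.5%) and 3391 non-isolated peaks (52.3%, 51.1 to 53.5%). The scores of the replicate partners were lower at isolated peaks. The best overlapping replicate 1 score had a median of 9.19 at isolated peaks (8.74 to 9.72) and 10.4 at non-isolated peaks (10.2 to 10.7). In replicate 2 the medians were 5.44 at isolated (5.18 to 5.73) and 6.28 at non-isolated peaks (6.13 to 6.41). A replicate peak that spanned several combined peaks lent its score to each of them, which the rule all but precludes at isolated peaks. The part of such partners in the score difference was not tested.

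The very highest scores were scarcer among isolated peaks. The combined score has a ceiling of 9.03, which 20 isolated peaks reached (1.73%, 1.12 to 2.66%), against 200 non-isolated peaks (3.08%, 2.69 to 3.53%). Of the 20, V held 8, III and IV held 5 each, II held 2 and X held 0. Their replicate 1 scores ran from 20.2 to 47.9 with a median of 34.8, and their replicate 2 scores from 5.58 to 36.9 with a median of 19.1, so that peaks tied at the ceiling differed widely in the replicates.

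Most isolated peaks were found in both replicates, but fewer than of the other peaks. With an overlap of at least 1 bp, 998 of 1155 isolated peaks (86.4%, 84.3 to 88.3%) had a partner in both replicate lists, 152 (13.2%, 11.3 to 15.2%) in replicate 1 alone and 5 (0.433%) in replicate 2 alone. Of the 6486 non-isolated peaks, 5919 (91.3%, 90.5 to 91.9%) had a partner in both, 510 (7.86%, 7.23 to 8.54%) in replicate 1 alone and 57 (0.879%) in replicate 2 alone. The share in both, isolated minus non-isolated, differed by −4.85 percentage points (−7.05 to −2.86). Every peak of either kind had a partner in at least 1 replicate list. The lists come from the same 2 ChIP libraries, so this overlap is not independent support.

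This order depended on what counts as overlap. With a reciprocal overlap of 50%, 78.5% of isolated (76.1 to 80.8%) and 65.0% of non-isolated peaks (63.8 to 66.2%) had a partner in both replicates, which reverses it. Among peaks whose partners were not shared with another combined peak, the stricter overlap gave 78.5% of the 1155 isolated and 82.3% of 4794 non-isolated peaks (81.2 to 83.4%). In the same peaks the overlap of 1 bp gave 86.4% of isolated and 89.8% of non-isolated peaks (88.9 to 90.6%). With combined peaks below the median score dropped, the difference at 1 bp was −0.49 points (−1.98 to 0.79).

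At an overlap of 1 bp, with shared partners counted, the share found in both replicates was lower for isolated peaks on each chromosome. It was 84.5% of isolated peaks on II (78.9 to 88.8%), against 89.8% of non-isolated peaks there. On III the isolated peaks had 85.8% (80.2 to 90.0%), against 89.9% of the non-isolated peaks, and on IV 85.8% (81.0 to 89.5%), against 91.6%. On V the isolated peaks had 88.1% (83.2 to 91.7%), against 91.6% of the non-isolated peaks, and on X 87.5% (83.03 to 91.0%), against 93.3%. On III and V the interval of the isolated peaks included the share of the others.

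The difference in replicate support was largest at low scores. All peaks were put into 5 classes of equal size by combined score, with ties split by position in the list. The overlap was 1 bp, and partners shared with another combined peak were counted, although no isolated peak had one. What shared partners add to the differences by class was not tested. In the lowest class, 71.9% of 263 isolated peaks (66.1 to 77.0%) and 82.8% of 1266 non-isolated peaks (80.6 to 84.8%) had a partner in both replicates, a difference of −10.9 points (−17.0 to −5.38). In class 2 the shares were 80.2% of isolated and 86.3% of non-isolated peaks, a difference of −6.12 points (−11.9 to −1.13). In classes 3 and 4 the differences were −3.77 points (−8.82 to 0.15) and −0.38 points (−4.04 to 1.97). In the highest class all 207 isolated peaks and 98.8% of 1321 non-isolated peaks had both partners.

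**Figure D4:**
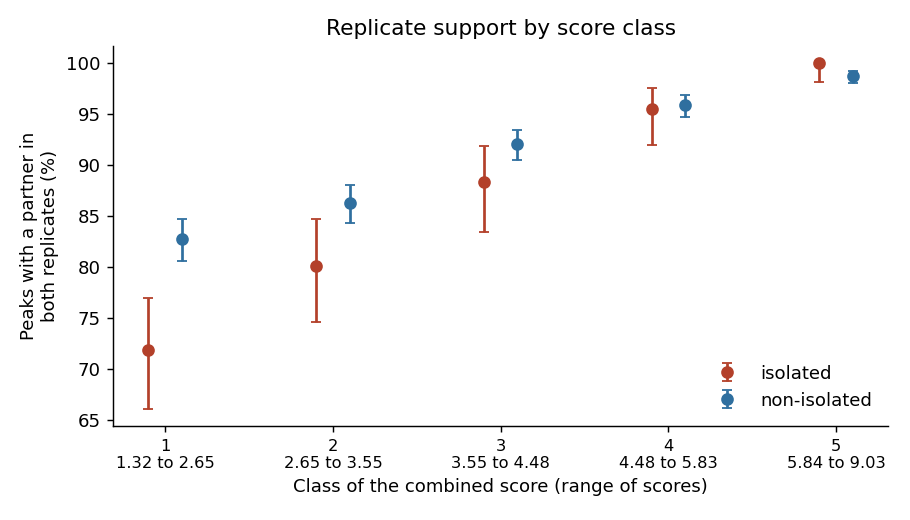
Share of combined peaks (%) with a partner in both replicate lists, in 5 classes of the combined score with their score ranges; red, isolated peaks, blue, non-isolated peaks, bars, 95% Wilson intervals; the axis starts at 65%. Isolated peaks run from 71.9% to 100% and stand 10.9 points below the others in the lowest class. The overlap is 1 bp, with shared partners counted.

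Within classes of width the gap was largest for the narrowest peaks. In that class, 146 to 170 bp, which held the most isolated peaks, 69.2% of 305 isolated and 74.0% of 1224 non-isolated peaks had both partners, a difference of −4.84 points (−10.7 to 0.69). In the other 4 classes the differences were −3.11, −1.56, −1.86 and −0.10 points, each with an interval that included 0. Shared partners were counted here too. The part of width in the difference was not tested further. Isolated peaks with both partners had a median score of 4.13 and a width of 218 bp, and those with replicate 1 alone had 2.67 and 164 bp. Non-isolated peaks with both partners had 4.15 and 245 bp, and those with replicate 1 alone had 2.97 and 165 bp.

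Across the 991 isolated peaks with exactly 1 partner in each list, Spearman's rho between the replicate scores was 0.63 and Pearson's r was 0.72. Across 5801 such non-isolated peaks they were 0.63 and 0.71. These describe peaks of the same 2 libraries, not independent replicates, and every peak used had been called in both.

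Replicate support at an overlap of 1 bp and width were higher in stretches with more peaks, and the isolated peaks were the low end. A peak in a stretch can count as supported through a replicate peak shared with its neighbours. The rule all but precludes this at isolated peaks, and what it adds to the rise in support was not tested. The order of support depends on the overlap asked for and on shared partners. With a reciprocal overlap of 50% the share was 78.5% for isolated and 65.0% for non-isolated peaks. Among peaks with unshared partners that overlap gave 78.5% of isolated and 82.3% of non-isolated peaks. Neither is given by stretch size. At 1 bp the share with both partners was 86.4% for isolated peaks, 87.8% in stretches of 2 (85.6 to 89.7%) and 89.6% in stretches of 3 to 4 (87.9 to 91.1%). It was 92.3% in stretches of 5 to 9 (91.1 to 93.4%) and 93.0% in stretches of 10 or more (91.8 to 94.0%). The median widths in the same order were 207, 215.5, 228, 231 and 251 bp. Isolated peaks and those in stretches of 2 did not differ beyond their intervals in either measure.

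The combined score behaved otherwise. Its median percentile was 46.8 for isolated peaks, also 46.8 in stretches of 2, 47.8 in stretches of 3 to 4 and of 5 to 9, and 56.6 (54.0 to 58.5) in stretches of 10 or more. The difference in combined score between isolated and other peaks thus lay mostly with the longest stretches. The replicate scores had their lowest medians at isolated peaks, but the intervals overlapped those of stretches of 2 and of 3 to 4. Shared partners were counted here too. In the same order the median partner scores in replicate 1 were 9.19 (8.74 to 9.72), 9.71 (9.11 to 10.2), 9.90 (9.47 to 10.2), 9.88 (9.69 to 10.2) and 11.7 (11.2 to 11.8). In replicate 2 they were 5.44 (5.18 to 5.73), 5.95 (5.67 to 6.15), 5.77 (5.63 to 6.03), 6.13 (5.81 to 6.28) and 6.98 (6.67 to 7.14). At the ceiling stood 1.73% of isolated peaks and 1.86%, 3.00%, 2.81% and 3.94% of the peaks in stretches of rising size.

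**Figure D5:**
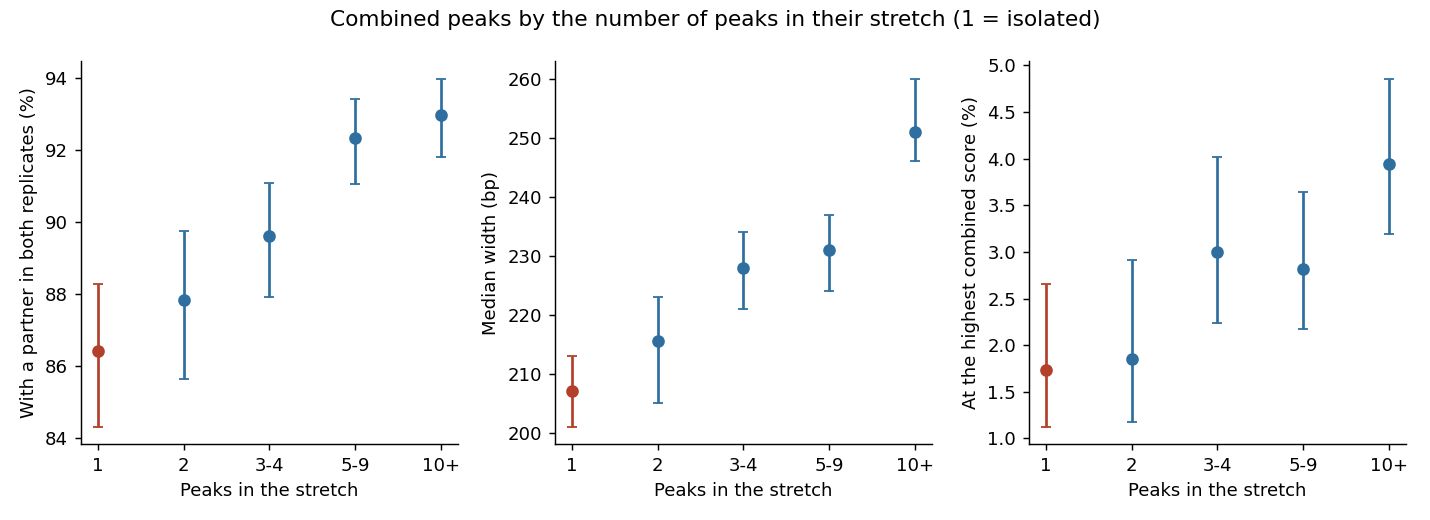
Combined peaks grouped by the number of peaks in their stretch, where 1 (red) is an isolated peak; left, share with a partner in both replicates (%), middle, median width (bp), right, share at the highest combined score of 9.03 (%), with 95% intervals; none of the axes starts at 0. Replicate support at an overlap of 1 bp goes from 86.4% to 93.0% and median width from 207 to 251 bp. Partners shared with another combined peak are counted, and no isolated peak has one.

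Among the isolated peaks themselves, width and replicate support differed little with distance. The median score percentile was 44.5 (39.3 to 49.7) with the nearest neighbour at 5 to 10 kb and 49.0 (42.4 to 56.6) at 10 to 20 kb. It was 50.6 (46.8 to 56.6) at 20 to 50 kb and 42.4 (24.9 to 46.8) beyond 50 kb. With the nearest neighbour at 5 to 10 kb (476 peaks) the median width was 205 bp and 86.3% had both partners (83.0 to 89.1%). At 10 to 20 kb (364 peaks) the values were 209 bp and 87.6% (83.9 to 90.6%), at 20 to 50 kb (270 peaks) 205 bp and 84.8% (80.05 to 88.6%), and beyond 50 kb (45 peaks) 207 bp and 86.7% (73.8 to 93.7%).

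Many isolated peaks were not alone in the replicate lists. A replicate 1 peak lay within 5000 bp, beside the one that overlapped the site, at 678 of 1155 isolated peaks (58.7%, 55.8 to 61.5%). A replicate 2 peak did so at 270 (23.4%, 21.03 to 25.9%), and peaks of both lists at 227 (19.7%). At 434 isolated peaks (37.6%, 34.8 to 40.4%) none of the 3 lists held another peak within 5000 bp. The replicate 1 list is the longest of the 3, and what its length adds to this difference was not tested.

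Because the rule bars combined peaks from the flanks, the flanking replicate peaks were nearly all ones with no combined peak at their place. Such peaks score low in each replicate list, so the lower scores are only a description of what the rule left in the flanks. The 1222 flanking replicate 1 peaks scored 4.76 at the median and were 176 bp wide, while the partners of the isolated peaks scored 9.19 and were 271.5 bp wide. In 1024 of 1274 pairs of a flanking peak and an isolated peak (80.4%) the flanking peak scored lower than the partner. In replicate 2 the 322 flanking peaks scored 3.48 and were 175 bp wide, the partners scored 5.44 and were 256 bp wide, and the flanking peak was the lower in 230 of 304 pairs (75.7%). The median gap to the isolated peak was 1786.5 bp in replicate 1 and 1193 bp in replicate 2.

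The 434 peaks alone in all 3 lists had a higher median score percentile, 51.7 (48.4 to 56.6), than the 721 with a replicate peak nearby, 44.1 (42.4 to 47.4). Their median width was 204 bp against 209 bp, and 87.3% (83.9 to 90.1%) had both partners, against 85.9% (83.1 to 88.2%). Width and replicate support did not differ beyond their intervals. X held 19.8% of the 434 and 24.8% of the 721.

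The same rule was then applied to each replicate list. It gave 1258 isolated peaks in replicate 1 (9.44% of that list, 8.96 to 9.95%) and 1148 in replicate 2 (14.1%, 13.4 to 14.9%). Of the 1155 isolated combined peaks, 472 (40.9%, 38.1 to 43.7%) overlapped an isolated replicate 1 peak and 755 (65.4%, 62.6 to 68.1%) an isolated replicate 2 peak. Those are 37.5% of the isolated replicate 1 peaks and 65.8% of the isolated replicate 2 peaks. Of the isolated replicate 1 peaks 761 (60.5%) had no combined peak at all, and their median score was 4.44, against 9.55 for those that had one. In replicate 2, 266 (23.2%) had none, and scored 3.48 at the median, against 5.55 for those with one.

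Single sites show the range. The most remote isolated peak lay on V from 17210303 to 17210450 (WS220). It was 148 bp wide, 243 kb from the next peak on one side and 304 kb on the other, and scored 13.4 in replicate 1 and 14.4 in replicate 2, with no other peak of any list in its flanks. Its neighbour on V, from 16966658 to 16966871, was isolated too, at 152 kb from its own nearest peak, and scored 8.26 and 5.32 in replicates 1 and 2. The peak on V from 7248120 to 7248275 stood 154 kb from the next one, scored 6.44 in replicate 1 and had no replicate 2 partner. A further peak on V, 7580452 to 7580683, stood 115 kb away and scored 3.11 and 5.78. Chromosome II had a peak at 3682876 to 3683029, 127 kb from the next, with scores of 8.74 and 6.13, and another at 8329047 to 8329293, 99.5 kb away, with 9.46 and 4.69. The combined scores of these 6 ran from 2.27 to 4.95.

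Of the 20 isolated peaks tied at the ceiling of 9.03, the 6 given here were those ranked highest by their replicate scores. Their high replicate scores thus follow from the choice and do not describe all 20. The peak on IV from 16845423 to 16845723 scored 47.9 in replicate 1, the highest value of that list, and 36.9 in replicate 2, and lay 34.8 kb from the next combined peak. It opens the run of 8 isolated peaks that spans 405 kb. Chromosome II held 2 of the 6. At 14561687 to 14561913 the replicate 1 score was 42.6 and the replicate 2 score 34.5, and at 9718706 to 9718911 they were 36.3 and 31.8. The one on V (4063650 to 4063880) had 40.0 and 31.8. The pair on III had 36.0 and 32.4 (7854406 to 7854753), and 37.0 and 29.7 (12905005 to 12905241). Each of the 6 had 1 or more further replicate 1 peaks within 5000 bp, up to 5 at the last, so none was alone in all lists.

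The widest isolated peaks were long single regions. The peak on IV from 14032462 to 14034604 was 2143 bp wide, scored 30.8 in replicate 1 and 27.5 in replicate 2, and had no other peak of any list in its flanks. Chromosome III held the other 2. One, at 4017955 to 4020054, covered 2100 bp and scored 26.1 and 9.72 in replicates 1 and 2, with 3 further replicate 1 peaks within 5000 bp. The other, at 317652 to 319629, covered 1978 bp and scored 9.72 and 7.41, with no further peak in its flanks.

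Some isolated peaks with good scores had a partner in replicate 1 alone. The 2 highest were on IV from 8607564 to 8607728, with a combined score of 5.30 and a replicate 1 score of 16.8, and on III from 2935204 to 2935393, with 5.27 and 17.9. Both were narrow, 165 and 190 bp, and neither had another peak of any list within 5000 bp. Genes, promoters and repeats at these positions were not analysed here.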

How the data were processed

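ChIP-seq for LET-418 was available as 3 peak lists, 1 for each of 2 ChIP replicates and 1 combined list of the series. Reads were aligned with BWA to ce10, per the submitters' processing notes, and peaks were called with MACS on WormBase WS220, per the file headers. For versions, filters, the peak threshold, the use of the input and the way replicates were combined, nothing is given in the sources used here. Each peak carries a score deposited by the authors, whose scale is not stated. The sequencing depth is unknown.

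Isolation, overlap and distances were computed from the positions in Python 3.11.15 with NumPy 2.4.6, pandas 2.3.3 and SciPy 1.17.1, and plotted with matplotlib 3.10.9. A gap is the number of bases between 2 peak edges. Chromosome length was taken as the last peak end in any list, 85.1 Mb for the 5 chromosomes. Parts were assigned by peak midpoint. Differences of shares have Newcombe intervals, medians have binomial order-statistic intervals, which were combined in the same way for differences of medians, and all intervals are at 95%. The code was tested on simulated lists with known isolated peaks and partners.

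The members were chosen, and the measures and alternatives set, with earlier results of these data known. Single sites were named by rule. The rule took the 6 most remote isolated peaks, the 6 best-scoring, with ties broken by the replicate scores, the 3 widest, the 2 best-scoring with a partner in 1 replicate alone, and the 3 on each side of the limit. The alternatives were gaps of 2500 and 10000 bp, neighbours from any of the 3 lists, a replicate's own list instead of the combined one, peaks scoring no less than the median, a reciprocal overlap of 50%, midpoints within 500 bp and the outer 20% of a chromosome on each side. The setting with only those combined peaks that had both partners was chosen after seeing the data. No genome or annotation of the same build was used, so no sequences or genes are given.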

Additional observations from a re-analysis of the deposited data

How the results depend on the processing

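The isolated share of 15.1% depends on the rule by construction. It was 21.8% with gaps over 2500 bp, 8.89% over 10000 bp, 5.68% with neighbours from any of the 3 lists, 27.4% once combined peaks below the median score were dropped (called the upper scores here) and 16.3% among those with partners in both replicates, which was added with the data in view. With a replicate left out, the rule was applied to the other one's list, and the shares were 9.44 to 14.1%. The lower share of isolated peaks with partners in both replicates was −0.49 points in the upper scores and 13.5 points, on the other side of 0, with a reciprocal overlap of 50%. In the other 4 settings it stayed between −5.16 and −3.35. It could not be computed with a replicate left out. Among peaks with unshared partners, the overlap of 50% gave 78.5% of isolated and 82.3% of non-isolated peaks. Isolated peaks were narrower in all 7 settings, with a difference of −31 to −18 bp at the median, −18 bp in the upper scores and −29 to −25 bp with a replicate left out. The difference in score percentile was 1.93 points with neighbours from any of the 3 lists and 0.15 among peaks with partners in both replicates. It was 0.00 with gaps over 10000 bp and in the upper scores, and −7.70 to −3.20 with a replicate left out. The outer share difference was −6.37 points with neighbours from any list, −12.4 in the upper scores and −4.61 to 0.85 with a replicate left out. The X share difference was −3.69 points with neighbours from any list, 4.17 in the upper scores and −2.73 to −0.06 with a replicate left out. The cause of these shifts was not tested. No paired analysis was possible because 1 group has peak lists. Without read counts, what depth adds to the longer replicate 1 list is unknown.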
